A study of Mus musculus with 6 samples.

Results

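The genes described here are 10 inflammatory genes of the interleukin-1 (IL-1), tumour necrosis factor (TNF) and acute phase response: Il1a, Il1b, Il1rn, Il1r1, Il1rl1, Il33, Tnf, Nfkbia, Nos2 and Saa3. They were taken by symbol from the count table, and all 10 were found among its 43346 genes. RNA-seq was made of limb bones from mice 1 day after birth, in 3 libraries labelled Hdac3 CKO and 3 labelled WT. All 6 are C57BL/6, and the bones of hindlimbs and forearms had been freed of the soft tissue around them before lysis in TRIzol. The Hdac3 CKO group is a conditional knockout of the histone deacetylase gene Hdac3, named with PRX1 in the series' design text. The Prrx1 (Prx1) limb enhancer, which commonly drives Cre in these models, acts in limb mesenchyme, the source of bone, cartilage and connective tissue, and not in blood cells. The labels name no Cre or floxed allele in the WT mice. Nothing in them ties a library to its own animal or litter, so the p-values here reflect library-to-library spread, part of which may be technical.

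IL-1 alpha and IL-1 beta are secreted or released cytokines that act through the receptor encoded by Il1r1, while the protein of Il1rn occupies the same receptor without signalling. IL-33 is a nuclear alarmin whose receptor, ST2, is encoded by Il1rl1. These receptors and that of TNF lead to the transcription factor NF-kB, which is held in the cytoplasm by the inhibitor that Nfkbia encodes. In bone, IL-1 and TNF are known as stimulators of osteoclast formation and resorption. Nos2 (inducible nitric oxide synthase) and Saa3 (serum amyloid A3, an acute phase protein made outside the liver in mice) are widely used readouts of this response.

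None of the 10 genes passed the test between Hdac3 CKO and WT bones (0 of 10 at an adjusted p under 0.05 in edgeR's quasi-likelihood test), where 1.12% of all 20210 genes tested did (0.668% higher and 0.45% lower). Saa3 and Il33 were higher and Il1a was lower in every Hdac3 CKO library than in every WT library, and the other 7 genes overlapped. Without overlap were thus 3 of 10 genes, beside 22.5% of all genes tested. The same 3 had an unadjusted p under 0.05, beside 14.7% of all. Saa3 passed the filter on low counts through Hdac3 CKO libraries alone and Il1a through WT libraries alone. The entry of these 2 into the counts was therefore not independent of their difference. DESeq2 called 2 of the 10, Saa3 and Il33, limma-voom called 0, and limma on log2 RPKM called 1, Saa3. Over all genes tested these tools called 4.22% (DESeq2), 0.871% (limma-voom) and 0.648% or 0.792% (log2 RPKM with a pseudocount of 1 or 0.1). By fitted direction 5 of the 10 stood above 0, as did 50.1% of all genes tested, and 5 below, with a median log2 fold change of -0.079 against 0.00088 over all genes tested.

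The region upstream of the transcription start is shown for the 3 genes whose libraries did not overlap, and for Nfkbia, a classical NF-kB target, as a comparison. The sequences are the 250 bases before the RefSeq start nearest to the gene's start in the authors' table, on GRCm38.p6, read 5′ to 3′ on the gene's strand. Capitals mark matches, on either strand, to the NF-kB consensus, to TTNNGNAA (a C/EBP-type motif) or to TGANTCA (AP-1).
Saa3, chr7:46715677-46715926, minus strand: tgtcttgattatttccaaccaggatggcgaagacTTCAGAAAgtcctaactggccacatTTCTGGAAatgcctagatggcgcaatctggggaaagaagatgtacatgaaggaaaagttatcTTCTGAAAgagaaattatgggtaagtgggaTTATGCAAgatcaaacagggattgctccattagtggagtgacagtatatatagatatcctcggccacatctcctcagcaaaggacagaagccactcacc
Il33, chr19:29924863-29925112, plus strand: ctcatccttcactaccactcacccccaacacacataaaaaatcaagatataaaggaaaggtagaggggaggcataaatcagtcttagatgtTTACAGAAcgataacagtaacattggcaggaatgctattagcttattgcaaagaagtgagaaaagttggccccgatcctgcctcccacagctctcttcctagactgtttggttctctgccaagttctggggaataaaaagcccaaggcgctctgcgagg
Il1a, chr2:129309973-129310222, minus strand: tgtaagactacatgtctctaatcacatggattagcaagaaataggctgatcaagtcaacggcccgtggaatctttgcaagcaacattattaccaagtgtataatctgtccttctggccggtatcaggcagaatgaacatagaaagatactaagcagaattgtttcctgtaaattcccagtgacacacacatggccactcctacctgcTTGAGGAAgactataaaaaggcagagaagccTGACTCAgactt
Nfkbia, chr12:55492648-55492897, minus strand: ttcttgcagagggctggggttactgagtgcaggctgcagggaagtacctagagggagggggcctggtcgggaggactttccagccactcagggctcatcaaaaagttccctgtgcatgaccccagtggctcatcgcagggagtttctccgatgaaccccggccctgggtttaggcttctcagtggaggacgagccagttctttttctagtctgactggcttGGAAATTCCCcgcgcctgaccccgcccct

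The Nfkbia window holds 1 match to the NF-kB consensus, which begins 29 bases before the start, and 3.90% of all 32851 windows of this length hold one. The Saa3 window holds 4 matches to TTNNGNAA. At least 1 such match is found in 36.8% of all windows, and 4 or more in 0.591%. The cut of 4 was taken from the Saa3 window itself, so the second share is a description only. The Il1a window has 1 match to TTNNGNAA and 1 to TGANTCA, the second being found in 6.75% of all windows, and the Il33 window has 1 match to TTNNGNAA. A second RefSeq start of Il33, 20676 bases downstream of the gene's start in the table, has a window with 2 such matches that is not shown. RefSeq starts were found for 9 of the 10 genes, all but Nos2, in 14 windows. Of these 14 windows, 12 held TTNNGNAA and 2 held the NF-kB consensus: that of Nfkbia and one at a second start of Il1r1. These windows are not independent, since several genes have more than 1 start. For Il1rn, 2 windows overlap and share a match to TTNNGNAA. The 12 windows therefore cannot be set against the share of all windows as separate cases. A match describes these letters and not binding, and no match says only that the letters are not in this window.

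Total counts per library were 43389262 to 46926855 in Hdac3 CKO and 46156691 to 50927978 in WT, and after TMM normalisation 1 count is worth between 0.0188 and 0.0242 CPM, the count scaled to a common library size. Hdac3 (ENSMUSG00000024454, chromosome 18, 37935844 to 37954988) averaged 29.8 ± 1.8 CPM in Hdac3 CKO and 48.7 ± 1.4 CPM in WT (SD, n = 3 each). Its log2 fold change was -0.71 ± 0.12 (SE), and the adjusted p from edgeR was 0.029. Leaving out Hdac3 CKO replicate 2 or 3, or any of the 3 WT libraries, took it past 0.05 (0.067 to 0.129). Osteoblast markers, led by Col1a1 and Col1a2, summed to 67350 to 97930 CPM in Hdac3 CKO and 44100 to 57730 CPM in WT, although 0 of the 8 passed the test. The log2 fold changes of Runx2, a transcription factor needed to form bone (-0.44), Bglap2 (-0.43) and Bglap (-0.23), both osteocalcin genes, were below 0, that of Runx2 without overlap between groups. Muscle markers, led by Acta1 and Myh8, also summed to 28030 to 46620 CPM in Hdac3 CKO and 25350 to 30780 CPM in WT, so RNA of muscle remained. Cartilage markers varied most, with 14060 CPM in Hdac3 CKO replicate 3 and 6578 CPM in WT replicate 3, against 784 to 1402 CPM in the other 4 libraries. In such bulk RNA, fewer cells of a type and less RNA per cell cannot be told apart.

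Levels between genes were compared per length, as the authors' RPKM. Nfkbia was the most abundant, at 33.6 RPKM on average over all 6 libraries, and its lowest library lay above the highest of any other member. Il1r1 (3.44 RPKM), Il33 (2.18 RPKM) and Il1rl1 (1.12 RPKM) followed. Il1r1 was above Il33 in 4 of 6 libraries, and Il33 was above Il1rl1 in 6 of 6. The remaining genes were rare: Nos2 averaged 0.430 RPKM, Il1b 0.325 RPKM, Saa3 0.319 RPKM, Il1rn 0.213 RPKM, Tnf 0.121 RPKM and Il1a 0.0889 RPKM. The Saa3 mean pools 0.571 RPKM in Hdac3 CKO with 0.0657 RPKM in WT. It also rests on the table's length of 531 bases, whereas the exons of the gene cover 2606 bases in GENCODE M21, so its place in this order is uncertain. Neighbours among these last 6 were not separated, since each pair changed order in at least 1 library. The receptors, the alarmin and the NF-kB inhibitor were therefore measured with 239 to 3810 counts per library, while Tnf, Il1a and Saa3 rested on at most 21 counts in any library.

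Among the IL-1 agonists, Il1a (ENSMUSG00000027399, chromosome 2, 129299610 to 129309972) was the member with the clearest lower level. It had 6, 4 and 5 counts in Hdac3 CKO libraries 1, 2 and 3, or 0.145, 0.094 and 0.116 CPM, against 20, 18 and 11 counts in WT libraries 1, 2 and 3, or 0.376, 0.349 and 0.224 CPM. The groups did not overlap, and every Hdac3 CKO library lay under the lowest WT library. Il1a averaged 0.119 ± 0.026 CPM in Hdac3 CKO and 0.316 ± 0.081 CPM in WT (SD, n = 3 each). In edgeR's quasi-likelihood test the log2 fold change was -1.40 ± 0.49, with an adjusted p of 0.23 (unadjusted p of 0.018). Pooled over libraries, 15 counts in Hdac3 CKO stood against 49 in WT, a ratio of 0.372 with a 95% exact interval of 0.194 to 0.674 that covers counting error only. It passed the filter on low counts through the 3 WT libraries alone. Of the 1974 exon bases of Il1a, 222 are shared with Gm14023 on the opposite strand. Gm14023 had 10, 10 and 9 counts in Hdac3 CKO and 27, 36 and 14 in WT. The strand setting of the counting is not given in the sources used here, so reads within the shared bases cannot be told apart.

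Il1b (ENSMUSG00000027398, chromosome 2, 129364570 to 129371139), the main inducible agonist of myeloid cells, lies 54.6 kb from Il1a. Its level was 0.630, 0.564 and 0.837 CPM in Hdac3 CKO, against 0.808, 0.543 and 1.30 CPM in WT. The groups overlapped, with WT replicate 3 the highest and WT replicate 2 the lowest of all 6. Il1b had a log2 fold change of -0.38 ± 0.40 with a 95% interval of -1.27 to 0.51, which became 0.0031 without WT replicate 3. Il1b also shares 25 of its 1907 exon bases with an antisense gene, Il1bos, which had 1 to 6 counts in Hdac3 CKO and 5 to 15 in WT.

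Il1rn (ENSMUSG00000026981, chromosome 2, 24336853 to 24351494), the receptor antagonist, shared with Il1b the order of the WT libraries, but not that of the Hdac3 CKO libraries. It stood at 1.04, 1.504 and 1.30 CPM in Hdac3 CKO, against 1.43, 1.05 and 2.56 CPM in WT. The highest library was WT replicate 3, as for Il1b, and the groups overlapped. On the log2 scale the change was -0.39 ± 0.36, with an interval of -1.19 to 0.42, and 0.052 once WT replicate 3 was left out. Within a library, where the scaling cancels, the RPKM of Il1rn over the summed RPKM of Il1a and Il1b was 0.466, 0.792 and 0.473 in Hdac3 CKO, against 0.420, 0.410 and 0.582 in WT. These ratios overlapped, with p = 0.5 in an exact two-sided permutation test over libraries, whose smallest p with 3 against 3 is 0.1.

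Neutrophil markers, like Il1b and Il1rn, were highest in WT replicate 3, but their groups did not overlap. Their summed level was 25.4, 19.5 and 30.4 CPM in Hdac3 CKO, against 121.6, 95.4 and 292 CPM in WT. Of 10 neutrophil markers 6 fell and 0 rose, and all 10 were lower in every Hdac3 CKO library. S100a9 (-3.002) and S100a8 (-2.76), the calcium-binding alarmins of granulocytes and the most abundant genes of the list, were among those that fell. Macrophage markers, led by Csf1r and Mrc1, ran the other way, at 503 to 582 CPM in Hdac3 CKO and 272 to 287 CPM in WT, and 6 of 9 rose and 0 fell. B lymphoid markers, led by Ebf1 and Cd79b, summed to 26.4 to 42.1 CPM in Hdac3 CKO and 59.7 to 86.6 CPM in WT. Most of this sum was Ebf1, at 21.9 to 38.65 CPM in Hdac3 CKO and 48.8 to 76.4 CPM in WT. Of the 9 markers 2 fell and 0 rose, and 8 were lower without overlap, while Cd79b overlapped. The part of these marker shifts in the levels of Il1a, Il1b, Il1rn and Tnf was not tested.

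**Figure D1:**
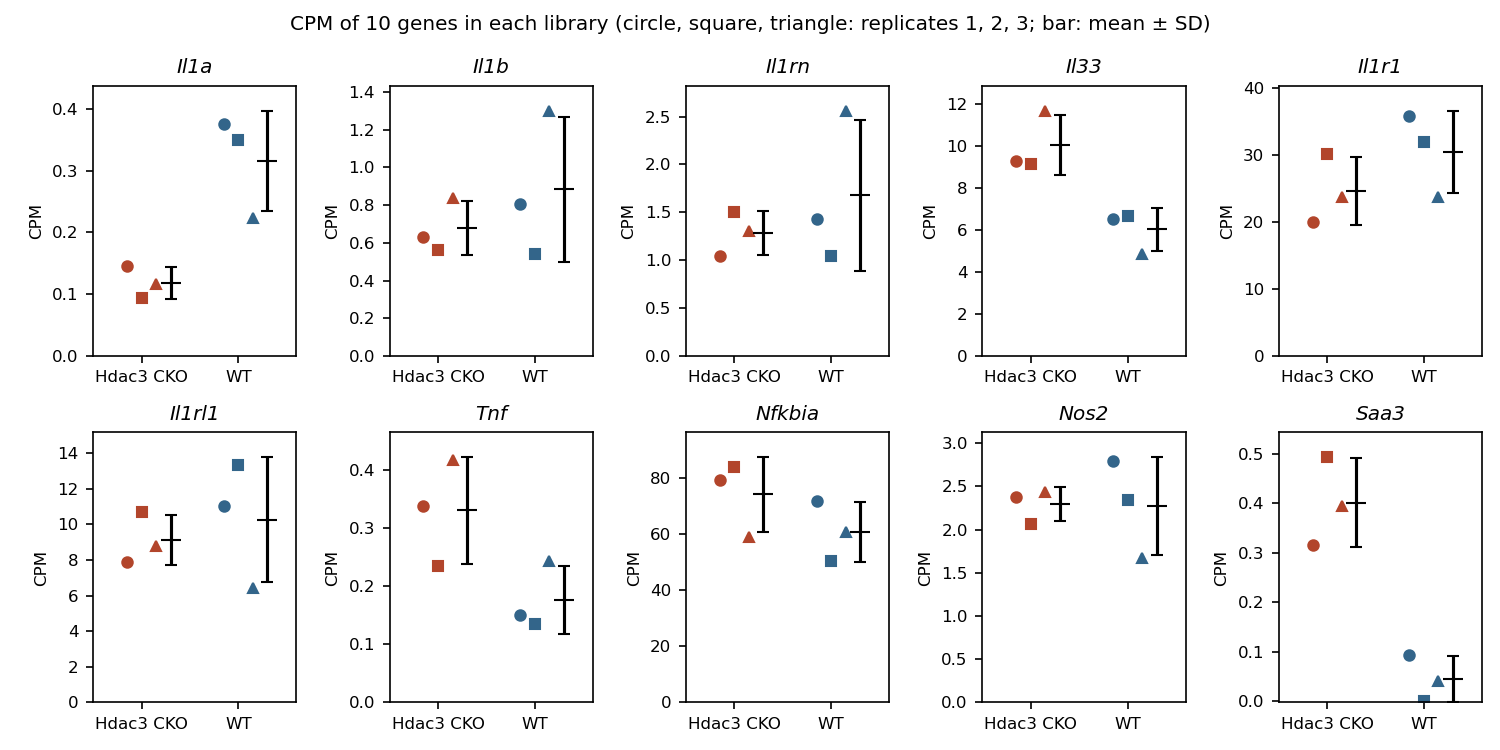
CPM (TMM-normalised, linear axes) of each of the 10 genes in Hdac3 CKO libraries (left, red) and WT libraries (right, blue), with symbols for replicates 1, 2 and 3 and black bars for the mean ± SD of 3 libraries. Saa3, Il33 and Il1a do not overlap between the groups, and WT replicate 3 is the highest library for Il1b (1.30 CPM) and Il1rn (2.56 CPM).

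Il33 (ENSMUSG00000024810, chromosome 19, 29925114 to 29960718), the alarmin of stromal, endothelial and epithelial cells, was the best-measured gene of the 3 without overlap. It stood at 9.27, 9.14 and 11.7 CPM in Hdac3 CKO, against 6.54, 6.67 and 4.86 CPM in WT. All 3 Hdac3 CKO libraries lay above all 3 WT libraries. The mean was 10.04 ± 1.4 CPM in Hdac3 CKO and 6.02 ± 1.0 CPM in WT (SD, n = 3 each), which is 1.67-fold with a 95% interval of 1.23 to 2.25. This is a log2 fold change of 0.74 ± 0.19, with an adjusted p of 0.12 (unadjusted p of 0.0037) from edgeR. DESeq2 gave an adjusted p of 0.017, and over all 16 alternatives the adjusted p ran from 0.017 to 0.491 with the change above 0 in each. Fibroblast markers, led by Col3a1 and Lum, summed to 11670 to 13350 CPM in Hdac3 CKO and 6892 to 9094 CPM in WT, although 2 of the 7 fell (Pi16 and Dpp4) and 6 of the 7 stood below 0. Endothelial markers overlapped, at 560 to 717 CPM in Hdac3 CKO and 469 to 596 CPM in WT. Epidermal markers, led by Trp63 and Krt10, overlapped too, at 18.0 to 42.7 CPM in Hdac3 CKO and 10.3 to 25.0 CPM in WT. Whether any of these bears on Il33 was not tested.

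Il1rl1 (ENSMUSG00000026069, chromosome 1, 40429570 to 40465415), the IL-33 receptor found on mast cells and other immune cells, did not follow its ligand. It stood at 7.89, 10.7 and 8.79 CPM in Hdac3 CKO, against 11.01, 13.3 and 6.43 CPM in WT, so the WT libraries enclosed all 3 Hdac3 CKO libraries. Its log2 fold change of -0.17 ± 0.26 had an interval of -0.75 to 0.41, and the value was 0.064 without WT replicate 2. Mast cell and basophil markers, led by Cpa3 and Cma1, summed to 256, 372 and 216 CPM in Hdac3 CKO and 320, 318 and 193 CPM in WT, and 0 of 9 tested passed. Il1rl1 and these markers were both lowest among WT libraries in replicate 3 and highest among Hdac3 CKO libraries in replicate 2. The lowest Hdac3 CKO library differed, replicate 1 for Il1rl1 and replicate 3 for the markers, as did the highest WT library. Whether mast cell RNA bears on Il1rl1 was not tested. The RPKM ratio of Il33 over Il1rl1 was 2.81, 2.05 and 3.18 in Hdac3 CKO, against 1.42, 1.19 and 1.81 in WT. The ratios did not overlap, with p = 0.1 in the exact two-sided permutation test, which cannot go lower here.

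Il1r1 (ENSMUSG00000026072, chromosome 1, 40225080 to 40317257), the signalling receptor of IL-1, lies 112 kb from Il1rl1. It stood at 19.98, 30.1 and 23.71 CPM in Hdac3 CKO, against 35.8, 31.9 and 23.72 CPM in WT. Hdac3 CKO replicate 3 and WT replicate 3 were level, and the other WT libraries lay above all Hdac3 CKO libraries. Il1r1 had a log2 fold change of -0.31 ± 0.20 with an interval of -0.75 to 0.13, which reaches from 0.596 to 1.09 times the WT level. Further IL-1 family receptor genes lie in the same stretch of chromosome 1. Il1r2, the decoy receptor, averaged 0.975 ± 0.54 CPM in Hdac3 CKO and 3.38 ± 2.3 CPM in WT (SD, n = 3 each), and Il18rap, a chain of the IL-18 receptor, 0.926 ± 0.30 CPM in Hdac3 CKO and 2.49 ± 1.5 CPM in WT. Neither passed the test, with log2 fold changes of -1.79 ± 0.56 and -1.42 ± 0.45. WT replicate 3, the library with most neutrophil marker RNA, was the highest for each (5.72 and 4.05 CPM). Il1rl2 and Il18r1 of the same stretch were instead lowest among WT libraries in replicate 3 (11.7 and 0.793 CPM). Their log2 fold changes were -0.40 and -0.83, and neither passed the test. The part of neutrophil RNA in these levels was not tested.

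Tnf (ENSMUSG00000024401, chromosome 17, 35199381 to 35202007), the founding cytokine of its family, was near the limit of detection. It had 14, 10 and 18 counts in Hdac3 CKO, or 0.339, 0.235 and 0.418 CPM, against 8, 7 and 12 counts in WT, or 0.1503, 0.136 and 0.244 CPM. Only WT replicate 3 reached into the Hdac3 CKO range. At a log2 fold change of 0.90 ± 0.48, Tnf had an interval of -0.17 to 1.97 and, in edgeR's quasi-likelihood test, 0.41 as its adjusted p. Of the libraries that carried Tnf past the filter, 3 were Hdac3 CKO and 1 was WT. The entry of Tnf was therefore not independent of its difference either.

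Nfkbia (ENSMUSG00000021025, chromosome 12, 55489411 to 55492647), whose product both restrains NF-kB and is induced by it, was the most deeply counted. It stood at 79.2, 84.0 and 58.9 CPM in Hdac3 CKO, against 71.6, 50.2 and 60.6 CPM in WT. The groups overlapped, since Hdac3 CKO replicate 3 lay below 2 of the 3 WT libraries. The mean was 74.0 ± 13.3 CPM in Hdac3 CKO and 60.8 ± 10.7 CPM in WT (SD, n = 3 each), a log2 fold change of 0.28 ± 0.18. The 95% interval of this change ran from -0.11 to 0.68.

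Nos2 (ENSMUSG00000020826, chromosome 11, 78920787 to 78960254) was level. It stood at 2.37, 2.07 and 2.44 CPM in Hdac3 CKO, against 2.80, 2.35 and 1.67 CPM in WT. The Hdac3 CKO values lay within the WT range. A log2 fold change of 0.013 ± 0.26 had an interval of -0.56 to 0.59, and its sign turned under 7 of 16 alternatives.

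Saa3 (ENSMUSG00000040026, chromosome 7, 46711998 to 46715676) had the largest fitted change of the 10. It had 13, 21 and 17 counts in Hdac3 CKO, or 0.315, 0.493 and 0.395 CPM, against 5, 0 and 2 counts in WT, or 0.0939, 0 and 0.0407 CPM. Every Hdac3 CKO library lay above the highest WT library, and the count of 0 in WT replicate 2 allows up to 0.0582 CPM (3 counts). Summed over libraries, 51 counts in Hdac3 CKO stood against 7 in WT, a ratio of 8.84 with a 95% exact interval of 3.995 to 23.1 for counting error only. In edgeR's quasi-likelihood test Saa3 had a log2 fold change of 3.07 ± 0.73, with an adjusted p of 0.090 (unadjusted p of 0.0019). The adjusted p was 0.042 with no filter on low counts, 0.017 in DESeq2 and 0.022 or 0.027 on log2 RPKM, and it ran from 0.017 to 0.385 over 15 alternatives, with the change above 0 in each. With 1 library left out, the log2 fold change of Saa3 ran from 2.515 (without WT replicate 2) to 4.155 (without WT replicate 1). Saa3 passed the filter through the 3 Hdac3 CKO libraries alone.

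**Figure D2:**
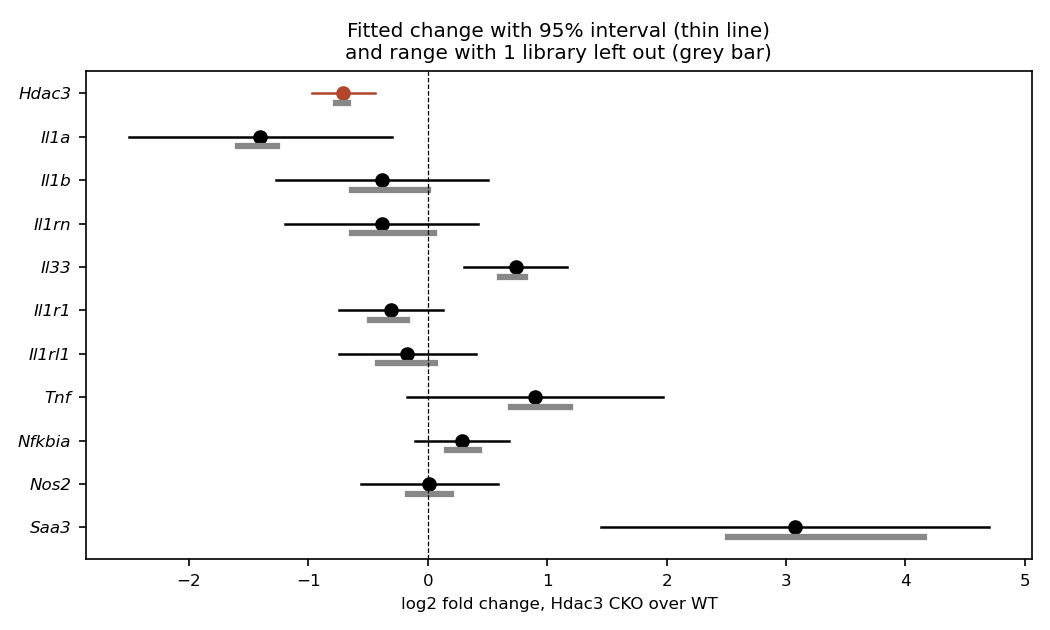
Log2 fold change of Hdac3 CKO over WT for Hdac3 and the 10 genes (points), with 95% intervals from the fit (thin lines, not adjusted for multiple testing) and the range when 1 of the 6 libraries is left out (grey bars). Hdac3 (-0.71, red) passed the test, and the intervals of Saa3, Il33 and Il1a leave out 0 although none of the 10 genes passed after adjustment.

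Other genes of these pathways were read from 6 lists in the same fit. Beside the counts of each list stand 14.7% of all genes tested with an unadjusted p under 0.05 and 4.22% called by DESeq2. Of 27 tested genes of the IL-1 family list 0 rose and 0 fell in edgeR, 9 had an unadjusted p under 0.05, and DESeq2 called 3. Its median log2 fold change was -0.10, against 0.00088 over all genes tested. Beside the members, Il18, an inflammasome-dependent cytokine, had a log2 fold change of 0.93 ± 0.30 at 2.22 ± 0.70 CPM in Hdac3 CKO and 1.17 ± 0.063 CPM in WT. Of 20 tested genes of the TNF list 0 rose or fell, 5 had an unadjusted p under 0.05, DESeq2 called 1, and the median was 0.084. Tnfrsf1a, the ubiquitous TNF receptor, averaged 93.8 ± 10.3 CPM in Hdac3 CKO and 65.6 ± 0.62 CPM in WT, a log2 fold change of 0.52 ± 0.12 whose adjusted p was 0.097. Birc2, a ubiquitin ligase of the TNF receptor complex, had a log2 fold change of -0.48.

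The NF-kB subunits, inhibitors and kinases list had 0 of 16 calls in edgeR, 4 genes with an unadjusted p under 0.05, 1 call in DESeq2 and a median of 0.0090. Bcl3, a nuclear IkB protein, had a log2 fold change of 1.09 and an adjusted p of 0.063, and Ikbke, an IKK-related kinase, -0.60. Of 22 tested NF-kB response genes 3 rose and 0 fell in edgeR, or 13.6% against 1.12% of all genes tested. As the list was chosen with earlier results of these data known, this share is a description only. The unadjusted p was under 0.05 for 7, DESeq2 called 3, and the list median was 0.27. Those that rose in edgeR were Ptgs2 (1.30 ± 0.22), the inducible cyclooxygenase, Csf1 (0.90 ± 0.15), the growth factor of macrophages and osteoclasts, and Icam1 (0.80 ± 0.13), a leukocyte adhesion molecule. Icam1 stood at 26.6, 25.8 and 25.9 CPM in Hdac3 CKO, against 16.3, 14.7 and 14.1 CPM in WT, without overlap. Of the tested genes of this list, 6 were higher without overlap and 1, Vcam1, was lower. Vcam1 averaged 23.6 CPM in Hdac3 CKO and 32.4 CPM in WT. Its log2 fold change was -0.46, with an adjusted p of 0.13 in edgeR. Leaving out Hdac3 CKO replicate 1 kept the number that rose at 3. It was 1 when Hdac3 CKO replicate 2 (Icam1) or WT replicate 3 (Csf1) was left out, and 0 for each of the other 3 libraries. The number was also 0 with library totals in place of TMM, which shifts the median of all genes tested to -0.18.

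In the acute phase list, 17 of 27 genes were tested and 0 passed in edgeR, with 6 at an unadjusted p under 0.05 and 3 called by DESeq2. The list median was 0.35, yet its genes of smallest p pointed both ways. Beside Saa3, Lcn2, the siderophore-binding lipocalin of neutrophils and inflamed tissue, stood at 2.76, 2.04 and 2.79 CPM in Hdac3 CKO, against 5.66, 4.83 and 13.5 CPM in WT. Lcn2 had a log2 fold change of -1.66 ± 0.38 with 0.086 as its adjusted p in edgeR, and WT replicate 3 was the highest library, as for the neutrophil markers. The other serum amyloid genes of the list (Saa1, Saa2 and Saa4) were too low to be tested. Among 12 nitric oxide and arginine genes 0 passed in edgeR, 4 had an unadjusted p under 0.05, DESeq2 called 1, and the median was 0.028. Slc7a1, a cationic amino acid transporter, had a log2 fold change of 0.72, and Nos3, the endothelial synthase, of 0.38. Arg2 (-1.10) and Slc7a2 (-0.39), also at an unadjusted p under 0.05 in edgeR, went the other way. Both were lower in every Hdac3 CKO library than in every WT library.

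**Figure D3:**
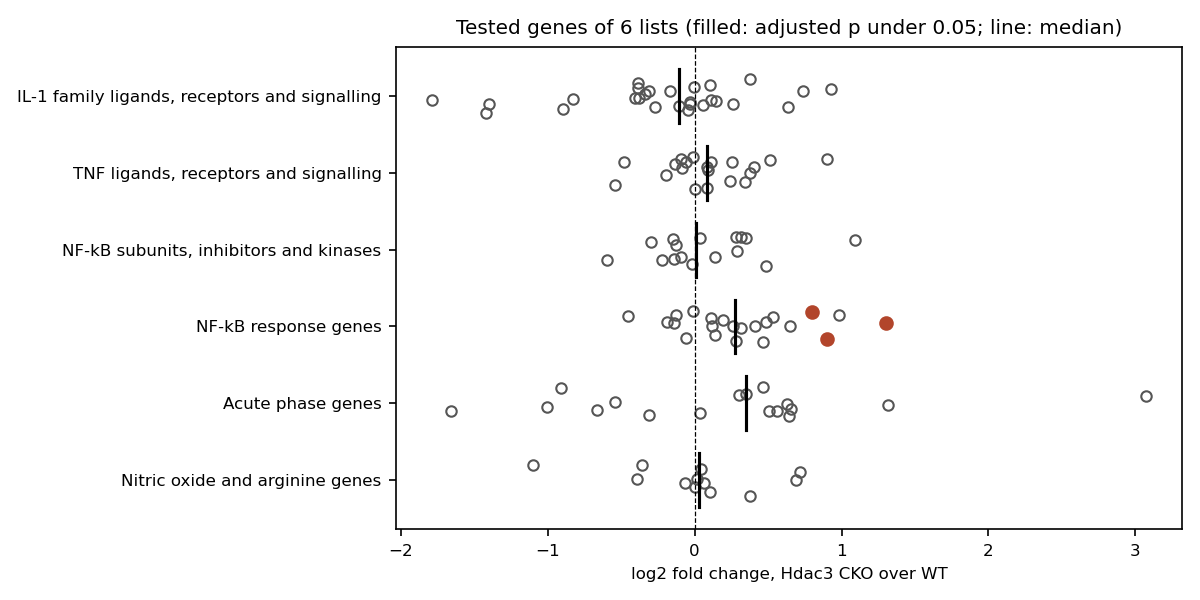
Log2 fold change of Hdac3 CKO over WT (horizontal axis) for each tested gene of 6 lists (rows), with filled red points for genes at an adjusted p under 0.05 and a black line at each list's median. The only filled points are Ptgs2, Csf1 and Icam1 among the NF-kB response genes.

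**Figure D4:**
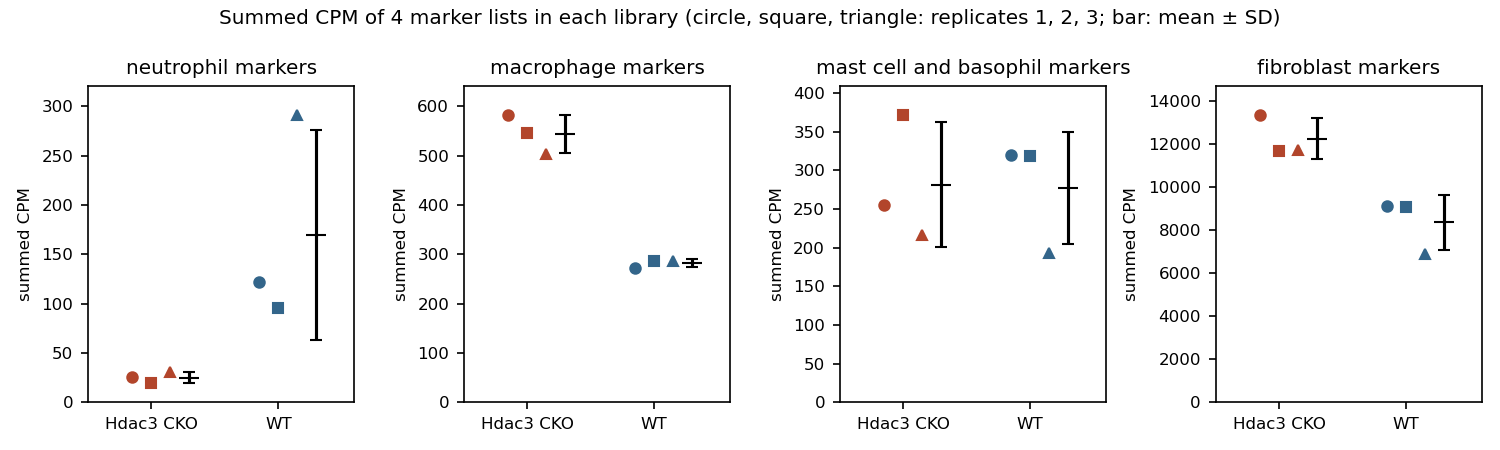
Summed CPM (linear axes) of 4 cell type marker lists in Hdac3 CKO libraries (left, red) and WT libraries (right, blue), with symbols for replicates 1, 2 and 3 and black bars for the mean ± SD of 3 libraries. Neutrophil markers reach 292 CPM in WT replicate 3 and at most 30.4 CPM in Hdac3 CKO, while macrophage markers are higher in every Hdac3 CKO library and mast cell and basophil markers overlap.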

How the data were processed

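The submitters' processing notes list bcl2fastq 1.8.4 and TopHat2 2.1.0 beside Subread and featureCounts, and mm10 as the build. How strand and multiply mapped reads were treated, and which annotation was used, is not given in the sources used here. The deposited values are raw read counts per gene, as whole numbers, and the authors' RPKM, which divides them by gene length and by a library total. Gene counts make up 72.1% to 87.0% of the totals behind the RPKM, so RPKM levels served to compare genes, not genotypes, except as an alternative. The counts were analysed in edgeR 4.0.16 (R 4.3.3) with its filter on low counts (20210 genes), TMM normalisation and a robust quasi-likelihood fit without covariates (4 residual degrees of freedom). P-values were adjusted by Benjamini-Hochberg over all genes tested and called under 0.05. Intervals are from the fit's standard errors. Exact permutation tests used SciPy 1.17.1. On simulated counts for Hdac3 CKO against WT (19818 genes), 51.1% of genes changed 2-fold and 87.7% of those changed 4-fold were called. Of the calls, 7.84% were unchanged genes. Genes of the lowest mean counts, Saa3 among them, were not drawn for change, so these shares do not cover them. Replicates were numbered in record order and pair nothing, and no 2 libraries agreed within sampling noise. Alternatives were other scalings, filters and tests (DESeq2 1.42.0, limma 3.58.1 with voom, or on log2 RPKM after adding 1 or 0.1) and leaving out libraries. The members and lists were chosen with earlier results of these data known. Named were all members, and of each pathway list the genes that passed and the 2 with the smallest p. Also named were the 2 most abundant genes of marker lists, and the 3 genes closest in profile to Saa3, Il1b and Il1rl1. Not every marker gene that passed was named. Il18, Il18rap, Il18r1, Il1rl2, Pi16 and Dpp4 were named after their values were seen. So were Runx2, Bglap2, Bglap, Vcam1, Arg2 and Slc7a2. Gene overlaps are from GENCODE M21.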

Additional observations from a re-analysis of the deposited data

How the results depend on the processing

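No paired analysis was possible because the labels give no replicate numbers that the groups share. Of the 10 genes, 6 kept their direction in every alternative in which they were tested. A stricter filter (CPM over 0.5 in at least 3 libraries) removed Il1a, Tnf and Saa3. Without WT replicate 3, Il1b turned to 0.0031 and Il1rn to 0.052 on the log2 scale, and without both cartilage-rich libraries Il1rn turned to 0.039. Il1rl1 turned to 0.064 without WT replicate 2. Nos2 turned to -0.17 with library totals, to -0.030 and -0.072 on log2 RPKM with a pseudocount of 1 and 0.1, to -0.023, -0.033 and -0.17 without Hdac3 CKO replicate 1, Hdac3 CKO replicate 3 and WT replicate 3, and to -0.21 without both cartilage-rich libraries. With 1 library left out, Il1b ran from -0.64 to 0.0031, Il1rn from -0.63 to 0.052, Il1rl1 from -0.42 to 0.064 and Nos2 from -0.17 to 0.19.

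Over all genes, 226 were called (135 rose and 91 fell). The number was 450 with no filter, 852 in DESeq2, 131 on log2 RPKM with a pseudocount of 1, 26 to 202 with 1 library left out and 0 without both cartilage-rich libraries. Of the calls, 59.7% were higher, against 33.8% with library totals and 36.6% or 36.9% on log2 RPKM. Among the 10 genes, 1 was called with no filter, 2 in DESeq2, 1 on log2 RPKM with either pseudocount, and 0 whichever library was left out. DESeq2 called 3 IL-1 family, 1 TNF, 1 NF-kB subunit or inhibitor, 3 acute phase and 1 nitric oxide gene. With no filter these were 1 NF-kB subunit or inhibitor, 2 acute phase and 1 nitric oxide gene, and on log2 RPKM 1 acute phase gene with either pseudocount. The 3 NF-kB response genes became 0 with library totals, on log2 RPKM with either pseudocount and without both cartilage-rich libraries, and 0 to 3 with 1 library left out. The cause of these changes was not tested. Depth limits Tnf, Il1a and Saa3, whose mean counts per library were under 15.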

Other observations

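Genes with the most similar profile over the 6 libraries were ranked by the root mean square difference of log2 CPM, each gene centred on its mean and with 0.05 CPM added, among 15378 protein-coding genes. For Il1b they were Xdh (0.096), Gm10392 (0.10) and Ltb (0.12), where Il1b itself varied by 0.41 around its mean. Xdh stood at 4.60, 4.25 and 5.49 CPM in Hdac3 CKO, against 4.90, 3.66 and 8.18 CPM in WT, highest in WT replicate 3 like Il1b. Ltb encodes lymphotoxin beta, of the TNF family. For Il1rl1 they were Psd2 (0.085), Dpf3 (0.11) and Fam124b (0.11). For Saa3 they were Hs3st4 (0.43), Kcnh5 (0.45) and Fgf21 (0.46), all at 0 in WT replicate 2, as was Saa3. With 6 libraries and this many genes, close profiles are a description only.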
